A study of Saccharomyces cerevisiae with 4 samples.

Results

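Histidine biosynthesis in budding yeast is represented here by 6 genes, HIS1, HIS2, HIS4, HIS5, HIS6 and HIS7, out of 5656 genes that had a probe set of their own on the array. They were chosen by name, as the probe sets whose annotated gene symbol is one of these. The remaining enzyme gene of the pathway, HIS3, was left out of the set because its signal lay near zero, an omission that used measured values.

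The pathway builds histidine from phosphoribosyl pyrophosphate (PRPP) and ATP. Its by-product AICAR is an intermediate of purine synthesis, so both routes share metabolites. In yeast the genes are scattered over the genome rather than joined in an operon, and they are textbook targets of Gcn4, the activator of amino acid synthesis genes, which Gcn2 controls through the translation of GCN4 mRNA. Bas1 and Pho2, the activators of purine genes, also act on some of them, HIS4 and HIS7 among these.

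Strains with Snf1-I132G gave 2 Affymetrix Yeast Genome S98 arrays and strains with unaltered Snf1 gave 2. Snf1, the AMP-activated protein kinase of yeast, is needed where glucose is short, and I132G makes it open to 2NM-PP1, a pyrazolopyrimidine inhibitor. Both groups grew in medium lacking uracil with 2% glucose, spent 120 min in 2% raffinose with 0.05% glucose, and received 25 µM 2NM-PP1 for 40 min. No group was without the inhibitor, so inhibition of the kinase cannot be told apart from the I132G allele itself. RNA of 3 transformants was combined per strain and run in duplicate. The labels do not call the duplicates separate cultures. The p-values therefore cover the scatter of the arrays alone, possibly a technical one, and precision is limited by having 2 arrays a group. In such bulk samples less RNA per cell and fewer cells that express a gene cannot be told apart.

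Values are array signals on a linear scale, set to a common average per array by the authors. Differences are Snf1-I132G minus Snf1 in log2(signal + 16), a scale that understates changes of dim genes, and are given with the standard error (SE) of limma's moderated test, whose p-values were adjusted over all 6956 tested probe sets. Of these, 713 were higher in Snf1-I132G (10.3%) and 1219 were lower (17.5%) at an adjusted p under 0.05, or 1356 and 1986 with the array pair as a block. The fit with the block leaves 1 residual degree of freedom, against 2 without it. It also rests on a pairing of arrays that was read from file labels with some doubt. Without replicate 1 of Snf1 the counts were 340 and 524, and without replicate 2 of Snf1 they were 337 and 466. Higher calls were 36.9% of all calls in the values as deposited, 47.5% with quantile normalization, 54.5% after centring on the median and 19.3% after centring on hybridization controls, and the median of all tested probe sets was -0.10, 0.02, 0.09 and -0.31 under the same scalings.

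All 6 histidine genes were higher in Snf1-I132G and passed the test, against 10.3% of all tested probe sets called higher. Their median log2 difference was 1.84, with -0.10 as the median over all tested probe sets. HIS1 and HIS4 showed the largest differences, about 6.55-fold and 5.73-fold on the scale used, and HIS2 and HIS6 the smallest, 2.31-fold and 2.13-fold. In each of the 6 genes both Snf1-I132G arrays lay above both Snf1 arrays, as they did for 26.2% of tested probe sets.

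HIS1 encodes ATP phosphoribosyltransferase, which joins ATP to PRPP in the first committed step and is inhibited by histidine. Its probe set, 5667_at, had signals of 4929 and 5563 on the Snf1-I132G arrays, against 788 and 782 on the Snf1 arrays. The Snf1 arrays were nearly equal, and the lower Snf1-I132G array was far above both. The log2 difference was 2.71 ± 0.15 (SE; 95% interval 2.34 to 3.09; limma, adjusted p = 0.0015), the 7th largest of the tested probe sets.

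HIS4 encodes a protein with several activities, which catalyses the steps after HIS1 and also the final conversion of histidinol to histidine. Its probe set, 6902_at, read 11666 and 10421 with Snf1-I132G, against 1910 and 1913 with Snf1. HIS4 rose by 2.52 ± 0.15 on the log2 scale (95% interval 2.14 to 2.90; limma, adjusted p = 0.0015). No array of one group came near the other group, and here replicate 1, not replicate 2, was the higher Snf1-I132G array.

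HIS6 encodes the isomerase that follows HIS4 in the pathway. On its probe set, 4105_at, Snf1-I132G arrays gave 151 and 192, against 78.6 and 65.3 for Snf1 arrays. This is a dim probe set, brighter than 33.9% of non-control probe sets on the array where it ranked lowest. Its log2 difference was 1.09 ± 0.20 (95% interval 0.58 to 1.60; limma, adjusted p = 0.015), and the groups did not overlap. This was the single call in the set that failed limma's threshold under an alternative where it was tested. That was without replicate 2 of Snf1, the lower Snf1 array, where the difference was 0.98. With the filter at the 50th percentile HIS6 was not tested at all. As a plain ratio of mean signals the difference was 2.39-fold, against 2.13-fold on the log2(signal + 16) scale.

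HIS7 encodes the glutamine amidotransferase and cyclase that releases AICAR, the branch toward purines. Probe set 7113_at had signals of 2106 and 2740 in Snf1-I132G and 782 and 758 in Snf1. Both Snf1-I132G arrays were well above the Snf1 arrays but lay further apart in relative terms than for any other member, with an SD of 18.5% of the mean (n = 2). The log2 difference was 1.62 ± 0.18 (95% interval 1.17 to 2.07; limma, adjusted p = 0.0046).

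HIS3 encodes imidazoleglycerol-phosphate dehydratase, the step between HIS7 and HIS5. Its 2 probe sets, 8359_at and 8360_at, read 0.246 to 0.938 on the Snf1-I132G arrays and 0.493 to 0.950 on the Snf1 arrays, all below 1 where the filter for testing lay at a mean signal of 35.01. The groups overlapped on both probe sets, and no fold is given. The labels used here give no marker genotype for HIS3, and the signal was near zero in both groups.

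HIS5 encodes histidinol-phosphate aminotransferase. Its probe set, 4195_at, gave 1128 and 1053 with Snf1-I132G, against 252 and 245 with Snf1. The arrays within each group were close and the groups far apart. The log2 difference was 2.07 ± 0.15 (95% interval 1.69 to 2.44; limma, adjusted p = 0.0019).

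HIS2 encodes histidinol-phosphate phosphatase, which makes histidinol for the last HIS4 steps. Signals of probe set 5322_at were 480 and 486 in Snf1-I132G, against 200 and 199 in Snf1. Its duplicates were close, with SDs of 0.882% of the mean in Snf1-I132G and 0.541% in Snf1. Its log2 difference was 1.21 ± 0.15 (95% interval 0.83 to 1.59; limma, adjusted p = 0.0060).

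**Figure D1:**
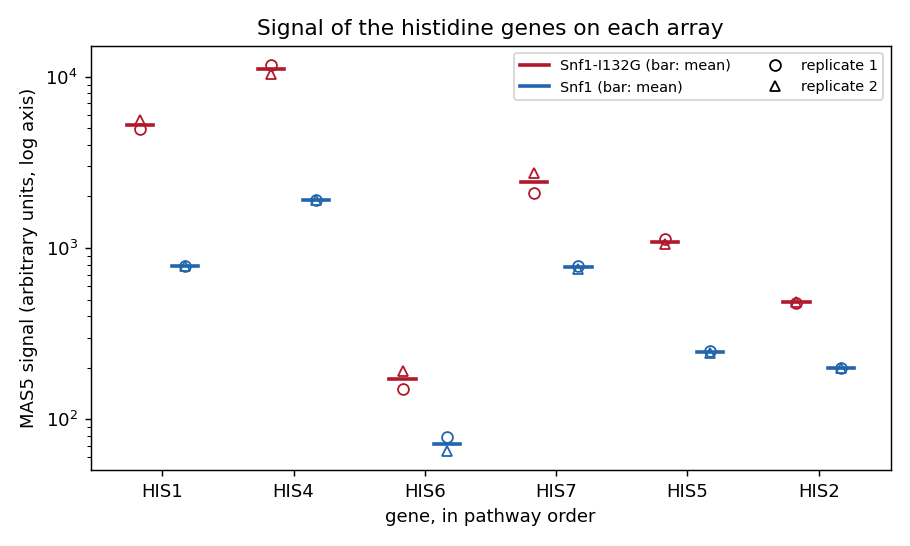
Signal of each histidine gene on each array (y axis, MAS5 signal in arbitrary units on a log axis; x axis, genes in the order of their first step in the pathway), with Snf1-I132G left of Snf1, circles for replicate 1, triangles for replicate 2 and bars for group means. Every Snf1-I132G point lies above both Snf1 points of its gene, and levels of different genes come from different probe sets and are not comparable.

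Along the pathway the size of the difference did not fall steadily from the first step to the last. From large to small the order was HIS1, HIS4, HIS5, HIS7, HIS2 and HIS6. The same order was found within pair 1 (the arrays numbered 1), and within pair 2 it changed only in that HIS6, at 1.36, came before HIS2, at 1.22. The median of the members was 1.75 in pair 1 and 1.93 in pair 2. In 5 of the 6 genes the log2 difference was at least 1 in both pairs, as it was for 4.59% of tested probe sets, and the exception was HIS6, at 0.82 in pair 1.

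Neighbours in that order were set against each other by the ratio of their signals within each array. This cancels a single scaling factor per array, apart from the added 16, but not a scaling that depends on signal. After quantile normalization HIS1, HIS4 and HIS5 were at 2.69, 2.36 and 2.20, against 2.71, 2.52 and 2.07 as deposited. HIS4 and HIS5 then lay closer together, and HIS1 and HIS4 further apart, than in the contrasts below, which use the deposited scale. HIS1 exceeded HIS4 by a log2 difference of 0.19 ± 0.17 (SE from the arrays), and the groups did not overlap in this ratio. HIS2 exceeded HIS6 by 0.12 ± 0.18, and for that ratio the groups overlapped. Both gaps were of about the size of their SE. The step between HIS4 and HIS5 was 0.45 ± 0.04, that between HIS5 and HIS7 was 0.44 ± 0.24 and that between HIS7 and HIS2 was 0.41 ± 0.18. The widest contrast, HIS1 over HIS6, was 1.62 ± 0.13. An exact permutation test of 2 arrays against 2 cannot give a two-sided p below 0.333, so none of these contrasts can pass one. Unlike the SEs given for single genes, those of the contrasts are not moderated by limma. With 2 arrays a group they are imprecise, so their sizes do not show which step is better resolved.

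**Figure D2:**
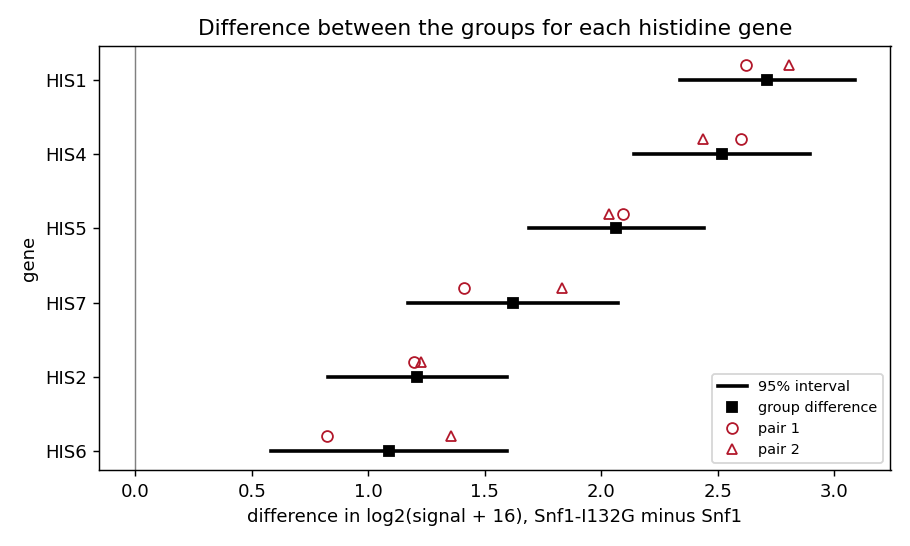
Difference in log2(signal + 16), Snf1-I132G minus Snf1 (x axis), for each histidine gene (y axis), with the group difference as a square, its 95% interval from limma as a line, pair 1 as a circle and pair 2 as a triangle. All intervals lie above 0, from HIS6 with 0.58 to 1.60 up to HIS1 with 2.34 to 3.09.

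The spread within groups was uneven. On Snf1 arrays the SD was 0.105% to 13.0% of the mean (n = 2), with HIS6 highest and the other 5 genes at or below 2.28%. On Snf1-I132G arrays it was 0.882% to 18.5%. The Snf1-I132G duplicates did not move together: replicate 1 was higher than replicate 2 for HIS4 and HIS5, and lower for HIS1, HIS2, HIS6 and HIS7. In the ordering of all tested differences the members fell between the 94.8th percentile (HIS6) and the 99.9th (HIS1).

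**Figure D3:**
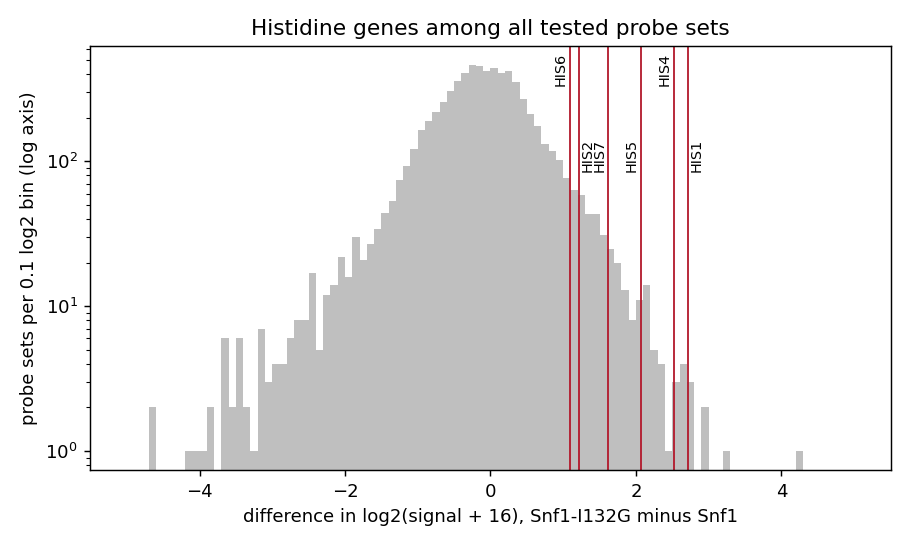
Number of tested probe sets in each 0.1-wide bin of the difference in log2(signal + 16), Snf1-I132G minus Snf1 (x axis; counts on a log y axis), with a line at each histidine gene. The 6 lines stand between 1.09 and 2.71, in the upper tail, while the median of all tested probe sets is -0.10.

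Genes that feed, control or use the pathway were described from lists chosen with earlier results of these data known. Each list was read against 10.3% called higher and 17.5% called lower among all tested probe sets. The PRPP synthetase genes supply the sugar phosphate consumed by HIS1. None of the 5 tested was called in either direction by limma, 1 had an unadjusted p under 0.05, and their median was 0.37. PRS3 had the largest difference, with signals of 1262 and 1834 in Snf1-I132G and 731 and 1050 in Snf1 (log2 difference 0.78 ± 0.26; adjusted p = 0.078 by limma). Entering the array pair as a block brought that p to 8.9e-04, and 3 of these genes then rose.

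Purine synthesis shares AICAR with HIS7. Of 9 tested genes 2 rose and none fell, with a median of 0.46. These were ADE12, for adenylosuccinate synthase, at 1.01 ± 0.17 (limma, adjusted p = 0.011), and ADE13, for adenylosuccinate lyase, at 0.60 ± 0.17 (0.047), and no gene of this list passed once either Snf1 array was left out. ADE13 also lost its call when either Snf1-I132G array was left out, after centring on hybridization controls (0.20), without the filter (0.060) and without the trend (0.059). ADE6 was at 0.59 ± 0.17 (adjusted p = 0.053 by limma, 0.0078 with the block) and ADE2 at 0.48 ± 0.15 (0.068, 0.012 with the block), and with it 6 genes rose and 1 fell. ADE16 and ADE17 were named after their values were seen, as the only tested genes of the list below 0. ADE16 had 1193 and 1207 in Snf1-I132G, against 1649 and 1589 in Snf1 (-0.43 ± 0.14; limma, adjusted p = 0.077). ADE17 was at -0.10 ± 0.36 (limma, adjusted p = 0.85). Among 6 one-carbon genes of the Bas1 regulon, 1 rose, ADE3, at 0.81 ± 0.18 (limma, adjusted p = 0.025), and their median was -0.01. With the block GCV3, for a subunit of the glycine cleavage complex, also fell (-0.49; limma, adjusted p = 0.025, against 0.31 without it). ADE3 did not pass without replicate 2 of Snf1 (0.16), when either Snf1-I132G array was left out (0.061 and 0.067), or after centring on hybridization controls (0.082).

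The transcripts of the activators GCN4, BAS1 and PHO2 did not pass on the deposited scale in the fit of all arrays without the block. GCN4 had signals of 8220 and 8188 in Snf1-I132G and 6154 and 6798 in Snf1 (0.34 ± 0.15; adjusted p = 0.15 by limma, 0.045 with the block). The GCN4 difference depended on the scaling, at 0.02 after quantile normalization, 0.11 with hybridization control centring and 0.55 with median centring (limma, adjusted p = 0.91, 0.68 and 0.084). BAS1 read 346 and 623 in Snf1-I132G, against 283 and 429 in Snf1, so its groups overlapped (0.40 ± 0.33; adjusted p = 0.41 by limma, 0.047 with the block). PHO2 was dim, at 43.7 and 42.0 in Snf1-I132G and 65.7 and 93.7 in Snf1 (-0.69 ± 0.22; adjusted p = 0.067 by limma, 0.021 with the block and 0.021 after centring on hybridization controls).

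Of 9 activator and Gcn4-control genes 1 was called, GCN2, for the kinase that senses uncharged tRNA, which fell by 0.80 on the log2 scale to signals of 61.3 and 59.6 in Snf1-I132G, against 120 and 114 in Snf1 (SE 0.17; limma, adjusted p = 0.023). That call was lost after median centring (0.051), without replicate 2 of Snf1-I132G (0.064) and without replicate 1 or 2 of Snf1 (0.13 and 0.12). GCN3, for a subunit of eIF2B, was at 0.76 ± 0.22 (adjusted p = 0.052 by limma, 0.0028 with the block). With the block 3 genes of the list rose and 3 fell. Protein levels and the translation of GCN4 were not measured on these arrays.

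Among genes for histidine uptake, charging and vacuolar transport 2 of 6 rose and 1 fell. HTS1, for histidyl-tRNA synthetase, had signals of 1469 and 1712 in Snf1-I132G and 749 and 673 in Snf1 (log2 difference 1.14 ± 0.16; limma, adjusted p = 0.0079). HIP1, for the high-affinity histidine permease, had 1277 and 1783 in Snf1-I132G and 771 and 899 in Snf1, a difference of 0.85 ± 0.21 (limma, adjusted p = 0.035). For both genes the Snf1-I132G arrays lay above the Snf1 arrays, but HIP1 lost its call without replicate 1 or 2 of Snf1 (limma, adjusted p = 0.15 and 0.081), without replicate 2 of Snf1-I132G (0.094) and after centring on hybridization controls (0.070). AVT1, a vacuolar amino acid transporter gene, was at -0.58 ± 0.15 (limma, adjusted p = 0.039), a call lost when any single array was left out and after quantile normalization (0.13) or median centring (0.14).

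Most tested genes of 3 other amino acid pathways were also higher. In arginine synthesis 6 of 7 tested genes rose, with a median of 1.78 and a range of 0.61 to 4.24. ARG3, counted among those that rose, had Snf1 signals of 29.1 and 30.9, below the filter at 35.01. It was tested only through its Snf1-I132G signals of 341 and 359. In lysine synthesis 6 of 8 rose, with a median of 1.39 and a range of 0.28 to 2.18. In aromatic amino acid synthesis 11 of 13 rose, with a median of 1.50 and a range of -0.67 to 1.96. Across the alternatives that kept all 4 arrays, 6 to 7 arginine, 6 to 7 lysine and 10 to 12 aromatic genes rose. These counts could be lower when 1 array was left out. None of these lists had a fall that passed, but with the block, and without replicate 2 of Snf1-I132G, 1 aromatic gene fell, ARO9, which was at -0.67 ± 0.40 in the fit of all arrays and was named after its value was seen. The difference between the lists was not tested, and all share the same 4 arrays.

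**Figure D4:**
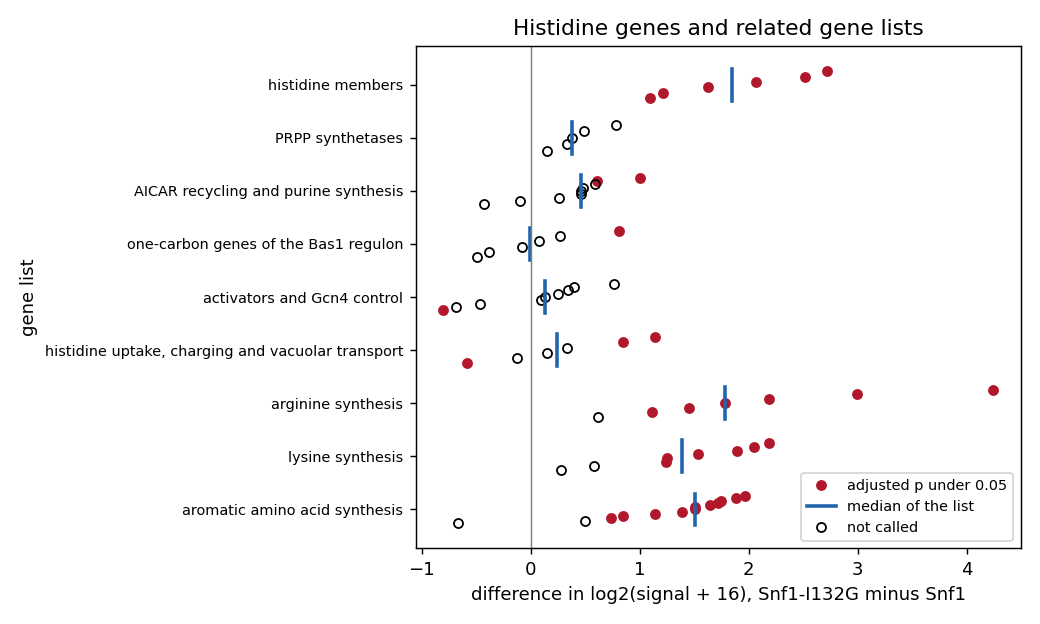
Difference in log2(signal + 16), Snf1-I132G minus Snf1 (x axis), for the tested genes of each list (y axis), filled where limma's adjusted p was under 0.05, with a bar at the median of the list. Histidine genes spread from 1.09 to 2.71, all filled, while PRPP synthetase genes reach 0.78 with none filled.

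The genes whose profiles over the 4 arrays were most like the mean profile of the members were found by Euclidean distance between log2 signals centred on each gene's mean. With so few arrays this likeness reflects little more than an equal group difference. The nearest was ILS1, for isoleucyl-tRNA synthetase, at a distance of 0.055 and a difference of 1.83, followed by LYS2, for aminoadipate reductase of lysine synthesis, at 0.070 and 1.89. ARG4, for argininosuccinate lyase, was at 0.13 with a difference of 1.78. The other 2 of the 5 nearest were probe sets of tRNA genes, YNCE0004C at 0.11 and YNCK0006C at 0.13, whose names end in _f_at, the mark of probe sets that related transcripts can share. HIS5 was the member closest to the mean profile, at 0.24, and HIS1 the furthest, at 0.84.

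The genes adjacent to the 6 members on the chromosomes were added as a comparison after the members' values were known. Adjacency was taken from the RefSeq order of protein-coding genes in assembly R64, so any other gene in between was passed over. All 12 adjacent genes had a tested probe set, of which 2 were called higher, 2 lower and 8 neither, with a median log2 difference of 0.01. Over all tested probe sets 10.3% were called higher and 17.5% lower, so counts this small stand near the background. ARO4 (YBR249C), for an enzyme that opens aromatic amino acid synthesis, lies next to HIS7 (YBR248C) and had signals of 3818 and 3202 in Snf1-I132G, against 934 and 838 in Snf1, a difference of 1.96 ± 0.17 (limma, adjusted p = 0.0026). ARO4 also stands in the aromatic list above.

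FAF1 (YIL019W), a ribosome biogenesis gene next to HIS6 (YIL020C), was at 1.05 ± 0.30 (limma, adjusted p = 0.049), a call lost when replicate 2 of Snf1-I132G or either Snf1 array was left out, after centring on hybridization controls (0.060), with a pseudocount of 64 (0.052) and without the filter (0.072). On the other side of HIS6, RPB3, a subunit gene of RNA polymerase II, was at -0.43 ± 0.16 (limma, adjusted p = 0.099). GIP2 (YER054C), for a proposed regulatory partner of the Glc7 phosphatase, lies next to HIS1 (YER055C) and moved the opposite way, to 48.5 and 56.4 in Snf1-I132G, against 355 and 352 in Snf1 (-2.44 ± 0.17; limma, adjusted p = 0.0019). LSB3 (YFR024C-A), next to HIS2 (YFR025C), was at -0.56 ± 0.15 (limma, adjusted p = 0.041), and it lost its call when any 1 array was left out, after quantile normalization (0.12) or median centring (0.14) and without the filter (0.051). The LSB3 probe set, 5366_s_at, is also of a type that similar transcripts can share. Next to HIS4, BIK1 was at 0.67 ± 0.20 (limma, adjusted p = 0.058) and RRP7 at -0.05 ± 0.32. All adjacent genes named here were picked after their values were seen.

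**Figure D5:**
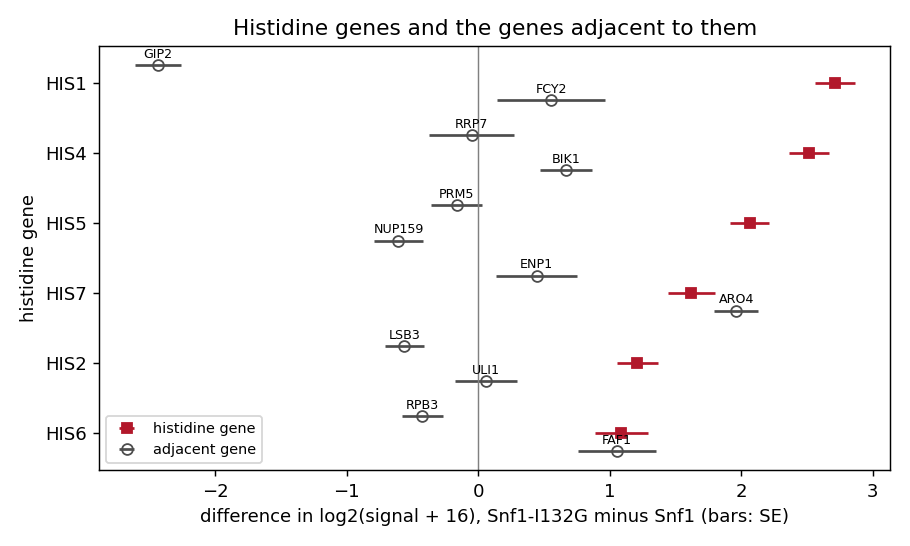
Difference in log2(signal + 16), Snf1-I132G minus Snf1 (x axis; bars, SE from limma), for each histidine gene (square) and the protein-coding genes adjacent to it (open circles), with one histidine gene per row of the y axis. ARO4 beside HIS7 and FAF1 beside HIS6 lie close to their histidine gene, while GIP2 beside HIS1 is at -2.44.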

How the data were processed

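Per the submitters' processing notes the authors used MAS5, and the deposited intensities are linear. The version and the build behind the array design are not given in the sources used here. Each array had been scaled, as its mean signal with 2% trimmed at either end lay between 500.4 and 500.5. Gene names came from the platform annotation, and each member had 1 probe set. The 60 controls were left out, and 6956 of 9275 other probe sets passed a filter at the 25th percentile of mean signal (35.01). Groups were compared by limma 3.58.1 in R 4.3.3 (lmFit, eBayes with trend, no covariates; 2 residual degrees of freedom, prior 3.64) on log2(signal + 16), calling probe sets at a Benjamini-Hochberg adjusted p under 0.05.

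Same-numbered arrays were treated as pairs, since their file labels share a string, read with some doubt as a shared run; their deviations from the group means correlated at r = 0.51 across probe sets. The alternatives were 3 other scalings, pseudocounts of 1 and 64, no filter or the 50th percentile, eBayes without trend or robust, the pair as a replicate block, and leaving out each array, where a lone array is assumed to vary like the other group. Members, lists and tests were chosen with earlier results of these data known. Named genes were the members, HIS3, up to 4 genes with the smallest p of each list, GCN4, BAS1, PHO2, HIP1, HTS1 and the 5 nearest profiles. Adjacent genes were added later. Some genes of the pathways listed were not analysed here.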

Additional observations from a re-analysis of the deposited data

How the results depend on the processing

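Of 83 values of the 6 histidine genes under 14 alternatives, 82 were higher in Snf1-I132G and past limma's threshold, and none changed sign. The exception was HIS6 without replicate 2 of Snf1. HIS6 did not reach the filter at the 50th percentile. The members' median, 1.84, was 1.93 after quantile normalization, 2.04 with median centring, 1.61 with hybridization control centring, 1.73 with a pseudocount of 64 and 2.07 over the 5 members past the stricter filter; leaving out 1 array gave 1.77 to 1.91 and 5 to 6 members called. With the replicate block, 1356 probe sets were higher and 1986 lower, all 6 members remained called (limma, highest adjusted p = 0.0017), and no member's call changed. Lower calls, 1219, were 802 with median centring and 2049 with hybridization controls as the standard. Leaving out 1 array gave 337 to 663 higher and 466 to 1061 lower.

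Rises in purine synthesis, 2, ran from 0 to 6, those of PRPP synthetase genes, 0, from 0 to 3, those of the uptake list, 2, from 1 to 2, those of the activator list, 0, from 0 to 3, and those of one-carbon genes, 1, from 0 to 1. Falls ran from 0 to 3 for activators and from 0 to 1 in the purine, one-carbon, uptake and aromatic lists. Leaving out 1 array turned the sign of BAS1 (range -0.012 to 0.81; below 0 without replicate 2 of Snf1-I132G), GCV1 (-0.90 to 0.14; above 0 without replicate 1 of Snf1) and MTD1 (-0.21 to 0.75; below 0 without replicate 2 of Snf1), none of them called in the comparison of all arrays; the cause was not tested. On the dim HIS6 probe set the difference was 1.24 with a pseudocount of 1 and 0.79 with one of 64.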
